A study of Mus musculus with 69 samples.

Results

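The early transcriptional response to interleukin-4 (IL-4) was examined in bone marrow–derived macrophages (BMDMs) of C57BL/6J (C57) mice by comparing RNA-seq libraries made after 1 h of IL-4 with libraries of untreated (basal) cells. The comparison holds 2 libraries at 1 h and 2 basal libraries, 4 of the 69 samples of the series, and was defined by the strain, treatment and time given in the sample labels. Marrow from female mice 8 to 12 weeks old was differentiated for 7 days with M-CSF, and the treated cells received mouse recombinant IL-4 at 20 ng/mL. The untreated cells are not stated to have received a vehicle. C57 carries no engineered allele. 3 further sets of BMDMs, each with 2 basal and 2 1 h libraries, were used to place the C57 values: SPRET/EiJ (SPRET), a wild-derived inbred strain; Egr2 fl/fl, which carries loxP-flanked Egr2 and no Cre; and LyzM-Cre Egr2 fl/fl, in which Cre expressed from the lysozyme M gene deletes Egr2 in myeloid cells. Each of the 4 sets also has libraries at 6 h and 24 h of IL-4.

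IL-4 binds a receptor made of IL-4Rα and a second chain, and the associated JAK kinases phosphorylate STAT6, which moves to the nucleus and activates transcription. Suppressors of cytokine signalling, the SOCS family with Cish as a member, are classical STAT targets that feed back on JAK signalling. In macrophages, IL-4 is known for a slower program called alternative activation, with Arg1, Chil3, Retnla and Mrc1 as its usual markers.

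Expression was deposited as TPM, a transcript abundance scaled for gene length and library size, for each gene and library, and the values were compared as log2(TPM + 1). Fold changes on this scale understate the change of genes with low TPM. The test was limma's moderated test with Benjamini-Hochberg adjustment over the 12088 genes that reached 1 TPM in 2 or more of the 16 time-course libraries. Genes are called induced or repressed here if their change exceeded 2-fold and their adjusted p was below 0.05. The 4 libraries held 10.8 to 17.1 Mtags (mega tags), and the Pearson correlation of log2(TPM + 1) across genes was 0.989 between the basal libraries and 0.988 between the 1 h libraries. As checks of the cell type, macrophage markers such as Csf1r (822 and 795 TPM basal, 782 and 745 TPM at 1 h) were abundant and limma called none of the 10 macrophage markers (0 at an unadjusted p under 0.05). The summed TPM of that list was 33101 and 32675 in basal and 32179 and 32135 in 1 h libraries. Lyz2 alone made up most of it, with 27354 and 26923 TPM basal and 26456 and 26396 TPM at 1 h. The B cell, eosinophil, mast cell or basophil, dendritic cell and erythroid lists each summed to at most 1.44 TPM in any of the 4 libraries. The T cell and fibroblast or stromal lists summed to at most 3.53 TPM, and the osteoclast list to 933 to 1015 TPM. That osteoclast sum was nearly all Ctsk (806 and 717 TPM basal, 764 and 721 TPM at 1 h) and Acp5 (209 and 227 TPM basal, 204 and 212 TPM at 1 h). Its other members, Calcr and Oscar, were at or under 0.097 TPM in all 4 libraries. Of the 46 markers in the 9 lists of other cell types only 12 reached the filter, with none from the B cell, eosinophil and erythroid lists, and limma called 0 of the 12 (0 at an unadjusted p under 0.05). The neutrophil list summed to 94.2 and 66.2 TPM basal and to 80.5 and 63.8 TPM at 1 h. Nearly all of that was S100a8, at 92.9 and 66.2 TPM basal and 79.2 and 62.3 TPM at 1 h. Its other members were low, with S100a9 at or under 0.214 TPM and Ly6g, Ngp and Retnlg at 0 TPM in all 4 libraries. The part of neutrophils in the results was not tested. In bulk RNA, fewer cells of a type and less RNA per cell cannot be told apart.

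After 1 h of IL-4, 85 genes were induced and 21 repressed in C57 BMDMs, 0.703% and 0.174% of the genes tested. The largest rises were in Ch25h, Socs1, Ccl7, Cish and Hbegf, which cover oxysterol synthesis, cytokine feedback, monocyte chemoattraction and growth factor signalling, and the largest falls among protein-coding genes were in Gdf15, Cxcr4 and Tgif1. The rises spanned log2 fold changes of 1.00 to 5.58 with a median of 1.32, and 16 of the 85 genes exceeded 4-fold. The falls spanned -1.87 to -1.03 with a median of -1.34, the lower end being the microRNA gene Mir7674, and none exceeded 4-fold. The median change over all tested genes was 0.02 (log2). With an adjusted p under 0.05 and no requirement on fold, 330 genes (2.73%) were higher and 148 (1.22%) lower. In none of the 106 called genes did the 1 h libraries overlap the basal libraries. Complete separation alone was common, since both 1 h libraries exceeded both basal libraries in 28.6% of all tested genes and lay under both in 18.8%.

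**Figure D1:**
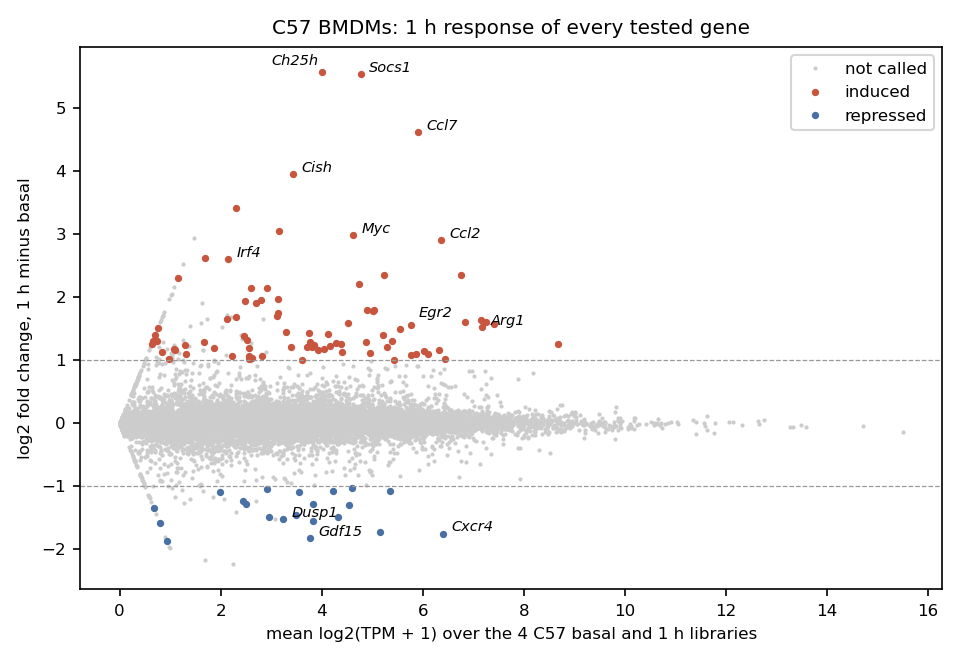
Log2 fold change of C57 BMDMs at 1 h of IL-4 over basal (y axis) against the mean log2(TPM + 1) of the 4 libraries (x axis), 1 point per tested gene. Dashed lines mark 2-fold; 85 induced genes (red) reach 5.58 and 21 repressed genes (blue) reach -1.87, while genes in grey were not called.

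Of the 106 called genes, 8 were microRNA or small nucleolar RNA genes (Mir5617 and Mir7674, for example), 5 induced and 3 repressed. All 8 were listed at 0 TPM in both libraries of 1 group. Mir5617, on chrX:20863126-20863182, was listed at 0 in both basal libraries and at 3.94 and 3.99 TPM at 1 h. Such genes are very short, and a change fitted against a group at 0, such as the -1.87 of Mir7674, rests on the pseudocount and is not a measured fold. The libraries were made from polyA RNA. Whether these reads came from the small RNAs or from longer transcripts over the same positions was not tested. The Mir5617 and Mir7674 calls were lost when any 1 of the 4 libraries was left out (adjusted p from 0.07 to 0.14), and that of Snora28 without basal replicate 1 (0.31), 1 h replicate 1 (0.2) or 1 h replicate 2 (0.2). The remaining calls comprised 80 induced and 18 repressed genes, of which the fold thresholds were met most narrowly by Socs5 at 1.00 and Irf2bpl at -1.03. Just outside lay Htr2a at 0.998 and Frs3os at -0.99. Leaving out a library moved these over the line: Irf2bpl was at -0.83 without basal replicate 2 and -0.92 without 1 h replicate 1, and Htr2a at 1.11 without basal replicate 1 and 1.06 without 1 h replicate 1. Frs3os passed under median-ratio scaling (-1.01) and quantile normalization (-1.05).

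Feedback inhibitors of cytokine receptors, among them 2 of the 4 largest rises, were called as follows. Of 8 SOCS genes tested, 3 were induced and 0 repressed, beside 0.703% and 0.174% of all genes. The list's median change was 0.81 (log2) beside 0.02 for all genes. Socs1, which inhibits JAK kinases directly, stood at 1.74 and 4.79 TPM in the basal libraries and at 155 and 220 TPM at 1 h. The groups lay far apart although the basal libraries differed from each other more than 2-fold, and the log2 fold change was 5.54 ± 0.31 (SE; adjusted p = 2.4e-07). Cish, an inhibitor named for its cytokine-inducible SH2 domain, was measured at 1.86 and 1.64 TPM basal and at 42.9 and 40.6 TPM at 1 h, a change of 3.96 ± 0.07 (adjusted p = 1.9e-11). Replicates of Cish nearly coincided in both groups. Socs5 went from 7.95 and 7.32 TPM to 16.4 and 16.2 TPM (1.00, adjusted p = 3.4e-05), a call lost without basal replicate 2 (0.95), without 1 h replicate 1 (0.995) and under both other scalings (0.97 and 0.99). Socs3 (0.91) and Socs2 (0.70) passed the adjusted p but not 2-fold, Socs3 exceeding it without basal replicate 2 (1.02), and Socs4, Socs6 and Socs7 passed neither.

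Of 19 tested receptor, JAK and STAT genes, limma called 0, beside 0.703% induced and 0.174% repressed of all genes. At an unadjusted p under 0.05, 3 of the 19 passed, and the list's median change was 0.01. Il4ra, the IL-4-binding chain, was at 32.1 and 34.3 TPM basal and 35.4 and 33.8 TPM at 1 h, so its libraries overlapped. Stat6 was at 102 TPM in both basal libraries and at 95.6 and 95.5 TPM at 1 h (-0.09, adjusted p = 0.52). Jak2 (0.56) and Ptpn2, a phosphatase of JAK and STAT proteins (0.53), were the members that passed the adjusted p alone.

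Sequence near the start sites was inspected because STAT dimers recognise a palindrome with half-sites TTC and GAA. RefSeq promoter windows (GRCm38.p6, 250 bases before to 50 after the annotated start) were found for 59 of the 85 induced and 14 of the 21 repressed genes. A spacing of 4 bases (TTCNNNNGAA), the form preferred by STAT6, was in the window of 8 of the 59 induced genes (13.6%) and 1 of the 14 repressed genes, beside 6.57% of 9143 tested genes with a window and 6.95% of all 32851 windows. A spacing of 3 bases (TTCNNNGAA), the form shared by other STAT proteins, was in 9 of the 59 (15.3%) and in 2 of the 14, beside 8.21% of the tested genes and 8.3% of all windows. Both motifs read the same on either strand, and Tlr8 held both and was counted under each. These counts are a description of letters in the windows. Of the 15 genes with the largest rises, 7 had a window and only Cish held either motif; no match was found in the windows of Ch25h, Socs1, Irf4, Ier3, Nfil3 and Flrt3. The stretches of 30 bases shown here are from the 4 induced genes with the largest rises among those with a match, 5′ to 3′ on the gene's strand, with the matches in capitals; Plekhf1, Tfec and Batf3 were chosen after their values were seen.
Cish: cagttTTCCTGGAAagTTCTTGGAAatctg
Plekhf1: ccgcgcacatTTCTGGAGAActcgggccgg
Tfec: ccattgtaaaTTCTGGGGAAaaatgtttat
Batf3: gccacgtgacTTCCACGAAgagcgggggcc
The Cish stretch is at chr9:107296654-107296683 (plus strand) and holds a pair of 3-base-spaced matches that begin at the 1st and 12th base of the annotated transcript. The Plekhf1 stretch is at chr7:38228094-38228123 (minus strand), and its match, with the 4-base spacing, begins 119 bases before the start. The Tfec stretch is at chr6:16898622-16898651 (minus strand), with a match of the 4-base spacing that begins 200 bases before the start. The Batf3 stretch is at chr1:191098165-191098194 (plus strand), with a match of the 3-base spacing that begins 239 bases before the start.

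Of 24 tested genes of the IL-4-linked transcription factor list, 8 were induced and 2 repressed (median 0.12), beside 0.703% and 0.174% of all genes. The 15 lists examined share some members, and they were chosen with earlier results of these data known. Their counts of calls are therefore not ranked. Myc, a driver of growth and a marker of early IL-4 responses, had 7.80 and 7.73 TPM basal and 67.5 and 69.8 TPM at 1 h (2.99 ± 0.08, adjusted p = 3.8e-10). Irf4, an interferon regulatory factor that promotes alternative activation, had 0.949 and 0.643 TPM basal and 9.87 and 9.93 TPM at 1 h (2.61 ± 0.11), and was the 1 call among 8 interferon regulatory factors. Id1, a dominant-negative helix-loop-helix protein, rose from 0.296 and 0.313 TPM to 6.05 and 8.17 TPM (2.62). All 3 genes had 1 h libraries well clear of the basal libraries. They are among the largest rises, which were taken from called genes whose groups do not overlap. Nfil3, a basic leucine zipper repressor, rose from 16.8 and 14.4 TPM to 83.9 and 82.9 TPM (2.35). Other induced members included Tfec (1.79), a relative of Mitf, Batf3 (1.75), an AP-1 family factor, and Egr2 (1.62). Egr2 was already at 63.2 and 64.9 TPM in basal cells and reached 197 and 200 TPM. Egr1 was low (0.21 and 0.237 TPM basal, 2.01 and 0.874 TPM at 1 h) and missed the adjusted p (0.96, adjusted p = 0.086), passing it without 1 h replicate 2 (1.30, adjusted p = 0.041), and Egr3 stayed under 0.2 TPM in all 4 libraries.

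The repressed members of that list were Bcl6 and Cebpb. Bcl6, a transcriptional repressor whose sites overlap STAT sites, fell from 34.4 and 36.3 TPM to 13.2 and 14.3 TPM (-1.30, adjusted p = 5.2e-06). Cebpb, a macrophage lineage factor, fell from 48.4 and 69.1 TPM to 25.3 and 28.8 TPM (-1.07, adjusted p = 0.018). Single libraries decided the Cebpb call. Without basal replicate 2 its change was -0.82 with an adjusted p of 0.21. The call was also lost without 1 h replicate 1 (adjusted p = 0.14) and without 1 h replicate 2 (adjusted p = 0.063). Pparg (0.15) and Klf4 (0.49), factors of the later program, were not called, although Klf4 passed the adjusted p.

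Immediate early genes, which respond without new protein synthesis, were called in both directions. Of 20 tested, Ier3, Fosl2 and Egr2 were induced and Btg2 and Klf10 repressed, beside 0.703% and 0.174% of all genes. The list's median was -0.06. Ier3, a stress-inducible survival gene, rose from 47.4 and 45.8 TPM to 247 and 240 TPM (2.36 ± 0.14). Btg2, an antiproliferative gene, fell from 11.7 and 12.1 TPM to 4.30 and 3.01 TPM (-1.49; adjusted p = 0.055 with only the compared groups in the fit), and Klf10, a TGF-β-inducible zinc finger factor, fell from 17.4 and 17.7 TPM to 5.79 TPM in both libraries (-1.45). Fos itself was lower at 1 h, at 13.7 and 16.0 TPM basal against 8.19 and 8.35 TPM (-0.77, adjusted p = 0.013), while Jun was higher, at 60.7 and 70.0 TPM against 99.1 and 105 TPM (0.64, adjusted p = 3.2e-04). Neither reached 2-fold. Of the dual-specificity phosphatases, which switch off MAP kinases, Dusp4 rose from 77.7 and 81.3 TPM to 246 and 254 TPM (1.64) and Dusp1 fell from 14.6 and 15.4 TPM to 4.56 and 4.62 TPM (-1.52). They were the only calls among 13 phosphatase and Sprouty family genes.

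A group of chemokine ligands rose and the receptor Cxcr4 fell. Of 19 tested chemokines, 4 were induced and 0 repressed, beside 0.703% and 0.174% of all genes, and the median change was 0.24. Ccl7 and Ccl2, neighbouring genes whose products attract monocytes through CCR2, rose from 8.57 and 14.3 TPM to 288 and 306 TPM (4.62 ± 0.29) and from 24.4 and 34.0 TPM to 212 and 236 TPM (2.91 ± 0.22). In both, basal replicate 2 was the higher of the basal libraries and still lay far below the 1 h libraries. Ccl12, of the same cluster on chromosome 11, rose from 1.39 and 2.19 TPM to 6.86 and 9.05 TPM (1.69, adjusted p = 0.0023); at a pseudocount of 0.1 TPM its adjusted p was 0.33 and with only the compared groups in the fit 0.073. These 3 genes are related in sequence, and reads that fit more than 1 of them could be split. Ccl4, an inflammatory chemokine, rose from 31.6 and 29.3 TPM to 89.1 and 95.0 TPM (1.57). Of the ligands associated with sustained IL-4 exposure, Ccl17 was listed at 0 TPM in all 4 libraries, and Ccl22 (0.102 and 0.322 TPM basal, 0.305 and 0.124 TPM at 1 h) and Ccl24 (0.072 and 0.227 TPM basal, 0.172 and 0.348 TPM at 1 h) were near 0 in both groups. Of 14 chemokine and formyl peptide receptors, Cxcr4, the receptor of CXCL12, was the 1 called gene and fell from 152 and 156 TPM to 46.7 and 43.7 TPM (-1.75 ± 0.05, adjusted p = 1.3e-09).

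**Figure D2:**
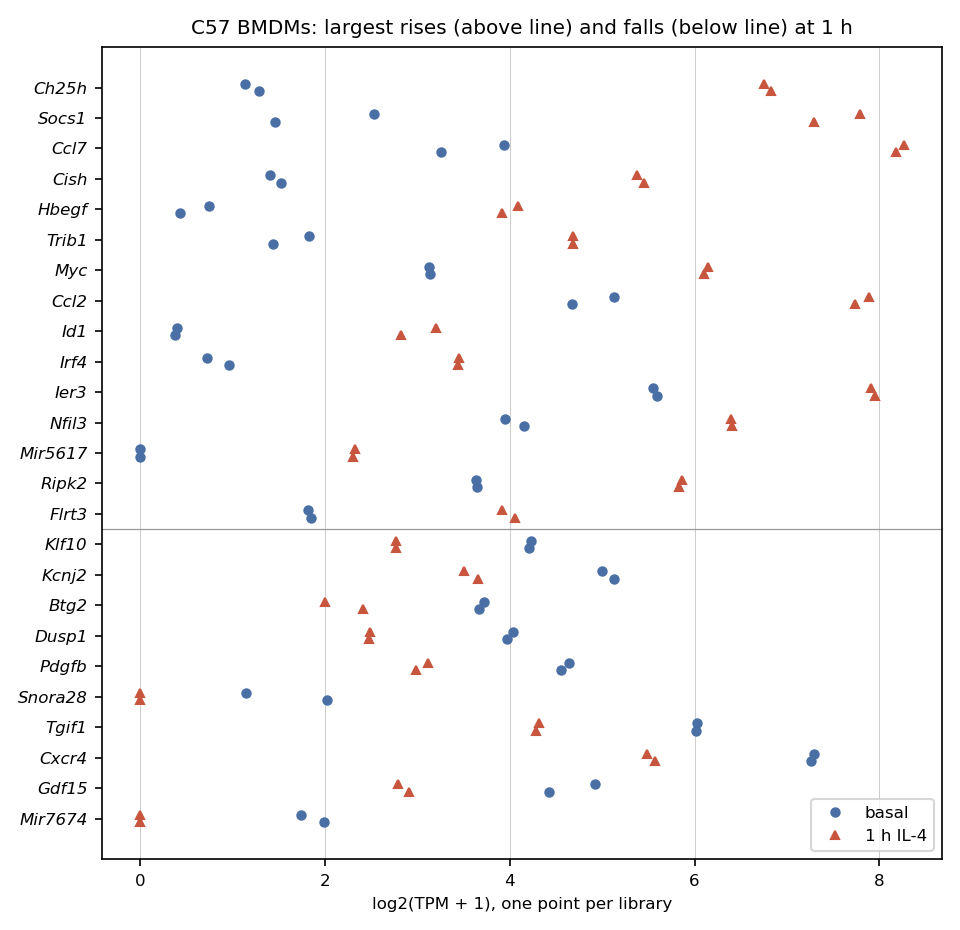
Log2(TPM + 1) (x axis) of the 15 genes with the largest rises and the 10 with the largest falls at 1 h in C57 BMDMs, with 1 point per library (2 basal circles and 2 1 h triangles per gene). The genes were taken from called genes whose groups do not overlap, so the separation seen here follows from that choice. Mir5617, Mir7674 and Snora28 are listed at 0 in both libraries of 1 group.

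The sterol genes called were an oxysterol-producing enzyme and an oxysterol receptor. Ch25h, which makes 25-hydroxycholesterol, had the largest change of all genes tested: 1.43 and 1.19 TPM basal and 113 and 106 TPM at 1 h, 83.7-fold by the ratio of mean TPM and 5.58 ± 0.15 on the log2(TPM + 1) scale (adjusted p = 3.8e-10). Gpr183, a receptor for dihydroxylated oxysterols derived from 25-hydroxycholesterol, went from 3.04 and 3.62 TPM to 7.40 and 8.29 TPM (1.03). That call was narrow, at 0.94 without basal replicate 1, 0.96 without 1 h replicate 2 and with an adjusted p of 0.056 when only the 4 libraries entered the fit. Cyp7b1, an enzyme that converts 25-hydroxycholesterol to such a derivative, was listed at 0 TPM in all 4 libraries. The other 14 tested sterol genes, cholesterol synthesis and export genes among them, were not called, and the list's median was -0.02. The 2 induced and 0 repressed of 16 stand beside 0.703% and 0.174% of all genes. Mylip was lower by adjusted p without reaching 2-fold (-0.71, adjusted p = 7.1e-04). In Egr2 fl/fl it was called repressed (-1.18, adjusted p = 1.0e-06).

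Markers of alternative activation were called in part at 1 h. Of 29 tested genes of that list, 5 were induced and 0 repressed (median 0.15), beside 0.703% and 0.174% of all genes. The induced genes were Ch25h, Arg1, Clec7a, Slc7a2 and Cdh1. Arg1, which hydrolyses arginine, rose from 77.0 and 90.8 TPM to 233 and 257 TPM (1.54, adjusted p = 1.8e-04). Slc7a2, an arginine transporter, rose from 25.9 and 23.5 TPM to 57.4 and 59.8 TPM (1.21), and the pair were the only calls among 12 arginine and polyamine genes. Clec7a, the β-glucan receptor Dectin-1, rose from 266 and 259 TPM to 623 and 640 TPM (1.26). Cdh1, the adhesion molecule E-cadherin, rose from 0.396 TPM in both basal libraries to 2.32 and 2.03 TPM (1.18). Mrc1, the mannose receptor, was at 76.7 and 75.1 TPM basal and 114 and 115 TPM at 1 h (0.59, adjusted p = 2.5e-05) without reaching 2-fold. Chil3 (0.12, adjusted p = 0.88) and Retnla (0.29, adjusted p = 0.72) did not pass the test.

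Inflammatory genes changed in both directions, mostly by less than 2-fold. Of 22 tested cytokine and NF-κB feedback genes, 3 were induced and 0 repressed, beside 0.703% and 0.174% of all genes. By adjusted p alone 7 were higher and 4 lower, beside 2.73% and 1.22% of all genes, and the median was 0.05. Ptgs2, the inducible cyclooxygenase, rose from 3.35 and 3.47 TPM to 16.1 and 16.5 TPM (1.97). Rel, an NF-κB subunit (1.29), and Zc3h12a, an RNase that degrades inflammatory mRNAs (1.09), were the other members called. Tnf was lower at 1 h, with 38.8 and 41.1 TPM basal and 26.0 and 20.7 TPM at 1 h (-0.76, adjusted p = 0.0037), and Il1b overlapped between groups. Il1a was higher and lay just under the fold threshold (0.996, adjusted p = 2.6e-05). It had 21.7 and 21.1 TPM basal and 44.35 and 42.9 TPM at 1 h. Ripk2, the kinase downstream of NOD receptors and outside the list, rose from 11.5 and 11.4 TPM to 56.0 and 57.2 TPM (2.21). Of 20 interferon-stimulated genes, limma called 0 and 0 passed the adjusted p, with 4 at an unadjusted p under 0.05 and a median of 0.11. Of 12 heat shock genes, limma called 0 (6 at an unadjusted p under 0.05, median 0.03). By adjusted p alone 1 was higher, Hsph1 (0.65, adjusted p = 0.0021), and 0 lower.

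Of 18 tested growth and survival genes, Hbegf and Myc were induced and 0 were repressed, beside 0.703% and 0.174% of all genes. By adjusted p alone 6 were higher and 3 lower, beside 2.73% and 1.22% of all genes, and the median was 0.13. Hbegf, an EGF receptor ligand, rose from 0.349 and 0.676 TPM to 14.03 and 16.05 TPM (3.41 ± 0.18). The genes that follow were among the largest rises and falls and belong to none of the lists. Trib1, a pseudokinase that directs C/EBP proteins to degradation, rose from 1.71 and 2.53 TPM to 24.6 and 24.8 TPM (3.05 ± 0.19). Flrt3, a leucine-rich transmembrane protein, rose from 2.59 and 2.52 TPM to 15.64 and 14.04 TPM (2.15). Among the falls, Gdf15, a stress-induced TGF-β family cytokine, fell from 20.4 and 29.3 TPM to 6.49 and 5.93 TPM (-1.82, adjusted p = 2.0e-04, or 0.053 with only the compared groups in the fit). Tgif1, a repressor of TGF-β and retinoid targets, fell from 63.6 and 64.1 TPM to 18.5 and 18.9 TPM (-1.72 ± 0.08). Pdgfb, a platelet-derived growth factor chain, fell from 22.5 and 23.9 TPM to 6.88 and 7.66 TPM (-1.55), and Kcnj2, an inward-rectifier potassium channel, from 33.9 and 31.0 TPM to 11.6 and 10.3 TPM (-1.49). In each of these genes the 2 libraries of a group were closer to each other than to any library of the other group. The largest rises and falls were taken from called genes whose groups do not overlap, so that separation follows largely from the choice.

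Whether the same genes responded in separately grown BMDMs was tested in Egr2 fl/fl cells, whose basal and 1 h libraries share none with C57. In that set 73 genes (0.604%) were induced and 21 (0.174%) repressed at 1 h. Of the 85 genes induced in C57, 83 were tested there: 52 were induced (62.7%), 66 were higher with an adjusted p under 0.05 (beside 2.34% of all genes) and 79 had a positive change, with a median of 1.22. Of the 21 repressed genes, 20 were tested: 9 were repressed (45%), 15 were lower with an adjusted p under 0.05 (beside 0.894%) and 19 had a negative change. The 52 shared induced genes were 61.2% of the C57 calls and 71.2% of the Egr2 fl/fl calls, and the 9 shared repressed genes were 42.9% of either. Across the 103 called genes tested in both, the changes had a Pearson correlation of 0.916 and a Spearman correlation of 0.825, beside 0.517 and 0.382 over all 11557 genes tested in both; genes are not independent replicates and the called genes span induced and repressed.

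**Figure D3:**
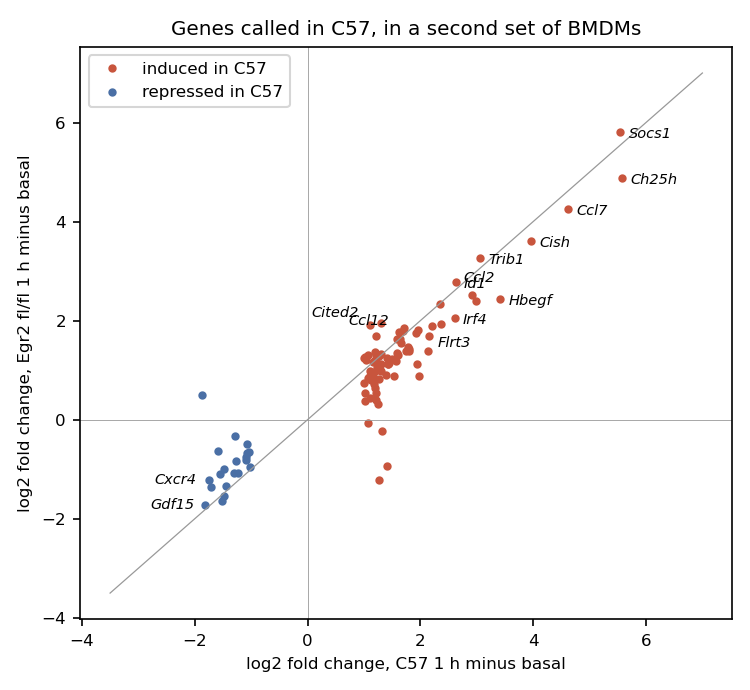
Log2 fold change at 1 h of IL-4 in Egr2 fl/fl BMDMs (y axis) against that in C57 BMDMs (x axis) for the 103 genes called in C57 and tested in both, with the line of equal change. Induced genes (red) lie above 0 on the y axis in 79 of 83 cases and repressed genes (blue) below 0 in 19 of 20.

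Socs1, Cish and Ch25h were induced in both sets. Socs1 stood at 2.70 and 4.64 TPM basal and 267 and 245 TPM at 1 h in Egr2 fl/fl (5.81), and Cish at 2.77 and 2.28 TPM and 43.2 and 40.5 TPM (3.61). Ch25h rose from 0.708 and 0.652 TPM to 49.8 and 47.3 TPM (4.88). Arg1 had 55.1 and 81.5 TPM basal and 151 and 102 TPM at 1 h, and missed the adjusted p there (0.87, adjusted p = 0.079). Batf3 (1.38, adjusted p = 0.075) also missed it, and Ptgs2 (0.88, adjusted p = 0.042) did not reach 2-fold. Tnf and Fos, which changed less than 2-fold in C57, were called repressed in Egr2 fl/fl, at -1.85 and -1.15. The difference between the 2 sets was not tested, since their tables were fitted separately.

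The fate of the early genes at later times was followed in the Egr2 fl/fl libraries, because in C57 the 1 h libraries that chose the genes also enter the comparison with later times. Of the 83 induced genes tested, 14 were lower at 24 h than at 1 h (16.9%, beside 2.1% of all genes) and 11 were higher (13.3%, beside 1.88%). At 6 h, 8 were lower than at 1 h (9.64%, beside 0.77%) and 14 higher (16.9%, beside 1.23%). The falls from 1 h to 24 h were largest in Id1, from 10.2 and 10.9 TPM (-2.70), Cited2, a CBP-binding transcriptional regulator, from 192 and 177 TPM (-2.06), and Trib1, from 22.2 and 20.8 TPM (-2.03). Socs1 fell by 1.81 over that interval and Myc by 1.34. Cish, in contrast, was slightly higher at 24 h (0.27, adjusted p = 0.040). Arg1 was 4.79 higher at 24 h than at 1 h and Slc7a2 3.35 higher, and their later levels far exceeded those at 1 h. Of the 20 repressed genes tested, 3 were higher at 24 h than at 1 h (15%), namely Dusp1 (1.74), Klf10 (1.36) and Gdf15 (1.24). The 1 that was lower (5%) was Bmf, a pro-apoptotic gene named after its values were seen.

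In C57 itself, mean TPM of Socs1 went from 188 at 1 h to 76.9 at 6 h and 28.5 at 24 h, that of Trib1 from 24.7 to 5.87 and 6.12, and that of Id1 from 7.11 to 1.29 and 0.606. Cish (41.8, 48.0 and 50.4 TPM) and Ccl7 (297, 301 and 373 TPM) kept or exceeded their 1 h level. Arg1 went from 245 TPM at 1 h to 2573 TPM at 6 h and 1974 TPM at 24 h. Chil3, not called at 1 h, averaged 2028 TPM at 24 h. Dusp1 (4.59, 9.93 and 16.5 TPM) and Tgif1 (18.7, 51.1 and 91.6 TPM) were back at or above their basal level by 24 h, whereas Pdgfb (7.27, 8.50 and 9.88 TPM) and Kcnj2 (11.0, 9.18 and 13.1 TPM) were not. As a description, 25 of the 85 induced genes were lower at 24 h than at 1 h in C57 (29.4%) and 6 higher (7.06%). Of the 21 repressed genes, 12 were higher (57.1%) and 0 lower. Over all genes 3.02% were lower and 2.35% higher.

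**Figure D4:**
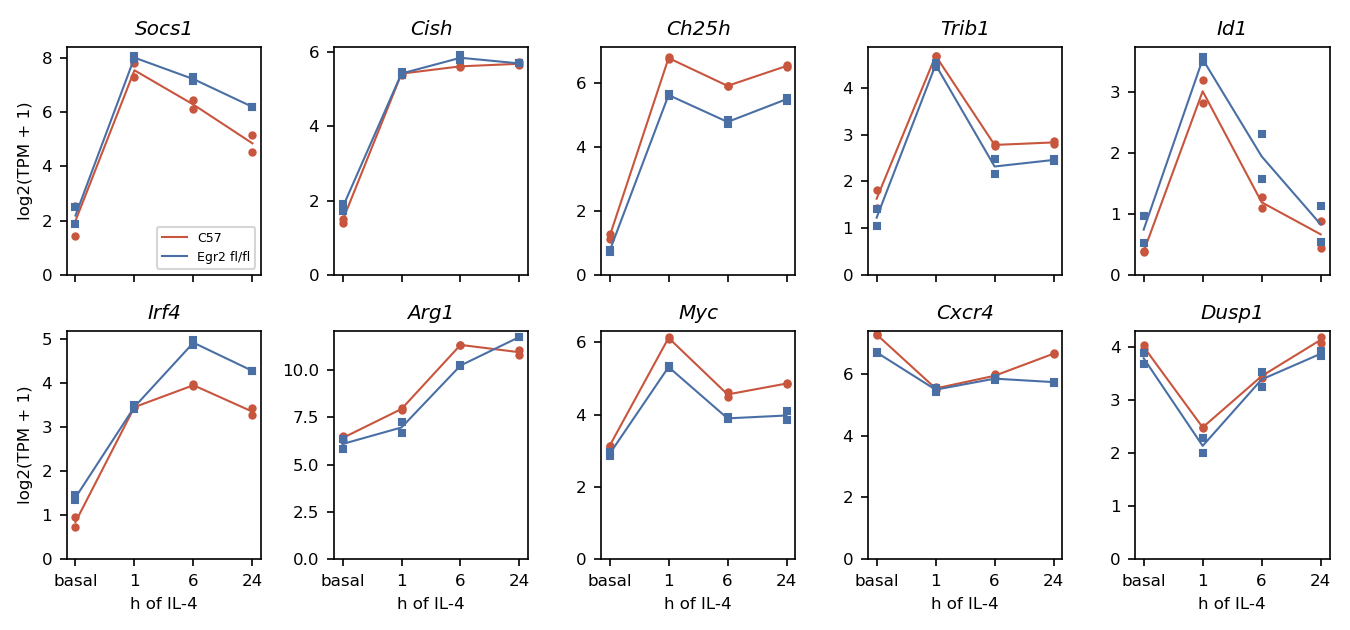
Log2(TPM + 1) (y axes) of 10 genes in basal BMDMs and at 1, 6 and 24 h of IL-4 (x axes, not to scale in time) in C57 (circles) and Egr2 fl/fl (squares), with 1 point per library and lines through the means of 2 libraries. Socs1, Trib1, Id1 and Myc are highest at 1 h, Cish is no lower at 6 h or 24 h than at 1 h, and Dusp1 is lowest at 1 h in both sets.

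Loss of Egr2 could be set beside the 1 h response because Egr2 was itself induced. Egr2 was at 0.859 and 0.854 TPM basal and 3.39 and 4.09 TPM at 1 h in LyzM-Cre Egr2 fl/fl, against 23.6 and 21.3 TPM and 82.0 and 75.6 TPM in Egr2 fl/fl. Of the 83 genes induced in C57 and tested in both genotypes, limma called 0 with a different response and 58 were induced in LyzM-Cre Egr2 fl/fl on their own (69.9%, beside 0.687% of all genes). At an unadjusted p under 0.05, 20 of the 83 differed, and 1, Ahr, passed the adjusted p: its response was 2.62 in LyzM-Cre Egr2 fl/fl and 1.69 in Egr2 fl/fl, a difference of 0.92 ± 0.12 (adjusted p = 0.033). Over all genes 1 was called with a larger response (0.00828%) and 0 with a smaller one. The response was more positive in LyzM-Cre Egr2 fl/fl for 61 of the 83 genes and more negative for 22 (median difference 0.18), beside 49.6% positive and a median of 0.00 over all genes, of which 2.63% had an unadjusted p under 0.05. Of the 20 repressed genes tested, limma called 0, 7 had an unadjusted p under 0.05, and the response was more negative for 17 (median difference -0.32). A missed threshold does not show that the genotypes responded alike.

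SPRET BMDMs shared most of the early response. In SPRET's own basal and 1 h libraries, 55 of the 85 genes were induced (64.7%, beside 1.41% of all genes) and 14 of the 21 repressed (66.7%, beside 0.472% of all genes), and 79 and 17 changed in the same direction as in C57. The difference between strains uses the C57 libraries that chose the genes, which favours smaller responses in SPRET. By that test 10 of the 85 induced genes had a larger response in SPRET (11.8%, beside 0.563% of all genes) and 8 a smaller one (9.41%, beside 0.248%). Ahr, the aryl hydrocarbon receptor, went from 7.83 and 7.38 TPM to 19.0 and 19.1 TPM in C57 and from 1.65 and 1.74 TPM to 34.7 and 30.9 TPM in SPRET, a difference in log2 response of 2.43 ± 0.13 (adjusted p = 8.0e-07). Serpinb2, a plasminogen activator inhibitor, rose from 1.08 and 0.371 TPM to 2.42 and 2.85 TPM in C57 and from 2.44 and 1.70 TPM to 55.2 and 47.9 TPM in SPRET; its C57 call was lost without basal replicate 2 (adjusted p = 0.051) and without 1 h replicate 2 (adjusted p = 0.052). Plekhf1, an endosomal adaptor, rose from 1.42 and 2.43 TPM to 11.4 and 12.1 TPM in C57 and from 2.18 and 3.04 TPM to 64.7 and 69.0 TPM in SPRET. In all 3 genes the 1 h libraries of SPRET exceeded those of C57. Egr2 also responded more in SPRET, with 13.8 and 15.8 TPM basal and 165 and 171 TPM at 1 h in SPRET. Its 1 h level in SPRET was under that of C57, and its larger response (1.81 ± 0.09, adjusted p = 3.2e-07) went with a lower basal level.

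Of the 8 genes with smaller responses in SPRET, 7 were under 1 TPM in all 4 SPRET libraries. Flrt3 was at or under 0.061 TPM in all 4 SPRET libraries, Msx3, a homeobox gene, at or under 0.106 TPM, and Ptgs2 between 0.379 and 0.479 TPM, before and after IL-4. The differences in response were -2.14, -1.58 and -2.02. SPRET reads were aligned to that strain's own genome and the coordinates shifted to the reference, and a part of this step in the SPRET values was not tested.

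**Figure D5:**
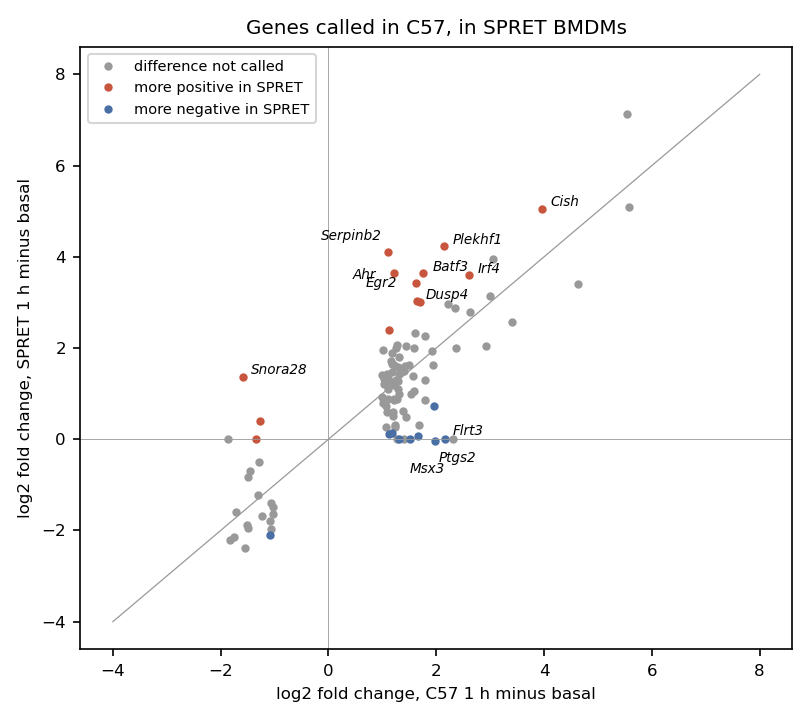
Log2 fold change at 1 h of IL-4 in SPRET BMDMs (y axis) against that in C57 BMDMs (x axis) for the 106 genes called in C57, with the line of equal change. Genes with a called difference in response are coloured, and Ahr, Serpinb2 and Plekhf1 lie above the line while Flrt3, Msx3 and Ptgs2 lie near 0 on the y axis.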

How the data were processed

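RNA-seq libraries of polyA RNA were made in BMDMs with a strand-marking protocol, and the replicates are described as biological in the study's methods. Reads were aligned by the authors with STAR to the genome of each strain, shifted to mm10 coordinates where needed, and quantified per gene with HOMER. The deposited values are TPM, normalized by the authors for gene length and library; the tag totals are in the deposited headers (5.70 to 24.0 Mtags, mega tags, in the time-course table, 4.69 to 32.9 Mtags in the Egr2 table), so the precision of low TPM values is limited, and no counts were used here. Each of the 2 tables also holds 18 columns of the authors' own comparisons, fold changes and p-values, which were not used. The TPM listed per library summed to 623219 to 626256 in the C57 basal and 1 h libraries. The sums were 602020 and 605984 in C57 at 24 h and 653586 to 655053 in SPRET basal and 1 h libraries. Levels are given as deposited, so those of different strains or times are not on exactly the same scale.

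TPM of 24537 genes were transformed to log2(TPM + 1), and those reaching 1 TPM in 2 or more of 16 libraries of a table were kept (12088 and 12079). A mean for each of 8 groups was fitted per table with limma 3.58.1 (R 4.3.3; trended prior, 8 residual degrees of freedom), since a count test does not suit TPM. Standard errors are from that fit. Differences between strains or genotypes are interaction contrasts. The script was tested on simulated data. Genes were named as the 15 largest rises and 10 largest falls with separated libraries, every called member of 15 role lists, a fixed set of IL-4 and early response genes, the leading later or strain differences, and those beside the fold threshold. The exception is a called list member that is not reported here. The members and lists were chosen with earlier results of these data known. Promoter windows are from RefSeq (GRCm38.p6). Gene coordinates are those of the deposited table (mm10). The correlation of the deviations of same-numbered replicates between C57 groups ranged from -0.14 to 0.27 and was over 0.1 in 2 of 6 pairs of groups; since that did not hold for every pair, the numbers were not taken to pair the libraries and the fit has no replicate block. Alternatives covered pseudocounts, filters, scaling, the libraries fitted, the prior, the block and leaving out each replicate.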

Additional observations from a re-analysis of the deposited data

Results flagged for a closer look

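The tested difference in 1 h response between SPRET and C57 exceeded 2-fold with an adjusted p under 0.05 (limma, interaction of strain and treatment) for 15 of the genes named above. The response was more positive in SPRET by 1.10 (log2) for Cish, 1.00 for Irf4, 1.89 for Batf3, 1.39 for Dusp4, 1.81 for Egr2, 1.25 for Socs2, 3.00 for Serpinb2, 2.43 for Ahr and 2.10 for Plekhf1. It was more negative by -2.14 for Flrt3, -2.02 for Ptgs2, -1.58 for Msx3, -1.47 for Fos and -1.41 for Tnf. Fos was at 8.61 and 11.4 TPM basal and 1.35 and 1.27 TPM at 1 h in SPRET, and Tnf at 14.2 and 13.9 TPM basal and 2.04 and 2.71 TPM at 1 h, so both fell more than 2-fold in that strain. Snora28 differed by 2.96, on TPM values listed at 0 in both SPRET basal libraries and in both C57 1 h libraries, so that the value rests on the pseudocount. Of the genes induced in C57, 10 (11.8%) differed in the positive and 8 (9.41%) in the negative direction, and of the repressed genes 3 (14.3%) and 1 (4.76%). Over all genes the shares were 0.563% and 0.248%. Of those 8 induced genes, 7 were under 1 TPM in all 4 SPRET libraries. The 3 repressed genes were Snora28, Mir1a-1, listed at 0 TPM in all 4 SPRET libraries, and Rhov. The C57 libraries that chose the genes enter these differences.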

How the results depend on the processing

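With 2 libraries a group, TPM in place of counts and 10.8 Mtags in the shallowest library, changes near 2-fold and genes under a few TPM were the least certain. No named called gene changed direction under any alternative, and 47 of the 85 induced and 7 of the 21 repressed genes kept their call under all 15 alternatives of the time-course fit. At a pseudocount of 5 TPM, 48 genes were induced and 9 repressed, 29 induced genes were shared with Egr2 fl/fl, 4 were lower there at 6 h than at 1 h, and 10 differed in SPRET; this setting shrinks the change of low genes by construction. At a pseudocount of 0.1 TPM, 14 repressed genes were shared with Egr2 fl/fl and 1 induced gene differed in LyzM-Cre Egr2 fl/fl. With only the compared groups in the fit, 152 genes were higher and 50 lower by adjusted p alone and 5 repressed genes were shared, with fewer samples behind the spread. Leaving out 1 library at a time gave 76 to 112 genes lower by adjusted p alone, against 148: 76 without basal replicate 2, 80 without 1 h replicate 1 and 92 without 1 h replicate 2. The same omissions gave 80 to 92 induced and 19 to 30 repressed genes; a group left with 1 library was assumed to vary like the others. With the replicate number as a block, 85 genes were induced and 22 repressed, and no count moved by more than 1.5 times. With the numbers of the C57 1 h libraries crossed, an alternative chosen after seeing the data because the compared groups correlated at -0.14, the counts were 85 and 22. Fits of a single strain or genotype give no value for the differences between strains or genotypes.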

Other observations

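Several receptors that the gene lists did not hold, picked after their values were seen, were among the induced genes of C57 BMDMs at 1 h. Adora2b, an adenosine receptor, had 2.70 and 2.37 TPM basal and 12.9 and 12.6 TPM at 1 h (1.96, adjusted p = 2.8e-07). P2ry1, a receptor for ADP, had 3.94 and 3.70 TPM basal and 14.99 and 14.38 TPM at 1 h (1.70), and Ptger4, a prostaglandin E2 receptor, had 12.6 and 12.5 TPM basal and 30.2 and 32.7 TPM at 1 h (1.26). The phosphodiesterase Pde4b, which hydrolyses cAMP, rose alongside from 12.3 and 12.2 TPM to 38.9 and 39.1 TPM (1.59). Of the Toll-like receptors, Tlr8 (46.6 and 45.0 TPM basal, 101 and 97.6 TPM at 1 h) and Tlr4 (29.5 and 29.6 TPM basal, 59.6 and 60.8 TPM at 1 h) rose, Tlr4 at the edge of the threshold (1.00). In Egr2 fl/fl the changes were 1.82 for Adora2b, 1.85 for P2ry1, 1.63 for Pde4b, 0.998 for Ptger4, 0.98 for Tlr8 and 0.75 for Tlr4. Ptger4, Tlr8 and Tlr4 did not reach 2-fold there.

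The pro-apoptotic genes Bbc3 and Bmf, also picked after their values were seen, were repressed, while other apoptosis genes changed in both directions or not at all. Bbc3, which encodes PUMA, had 6.35 and 8.35 TPM basal and 3.02 and 2.10 TPM at 1 h (-1.23, adjusted p = 9.5e-04), and Bmf had 7.48 and 8.28 TPM basal and 2.72 and 2.58 TPM at 1 h (-1.28, adjusted p = 9.3e-05). In Egr2 fl/fl Bbc3 changed by -1.08 and was called, while Bmf changed by -0.34 with an adjusted p of 0.25. Bcl2l11, which encodes the pro-apoptotic BIM, was higher at 1 h in C57, with 15.8 and 14.9 TPM basal and 24.4 and 22.8 TPM at 1 h (0.59, adjusted p = 1.3e-04), and Mcl1, an anti-apoptotic gene, was lower, with 365 and 360.3 TPM basal and 259 and 283 TPM at 1 h (-0.42, adjusted p = 0.0027). In Egr2 fl/fl Bcl2l11 and Mcl1 changed by 0.57 and -0.32, both with an adjusted p under 0.05. Among the other Bcl2 genes measured in C57, limma gave rises for Bcl2a1a (0.76, adjusted p = 0.022) and Bcl2a1b (0.42, adjusted p = 0.0020). Bcl2 (0.10), Bcl2l1 (-0.02) and Bcl2a1d (0.21) did not pass the adjusted p. In Egr2 fl/fl Bcl2a1a changed by -0.18 and Bcl2a1b by 0.42, and neither passed it.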
